A study of Mnemiopsis leidyi with 31 samples.

Results

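Of 31067 transcript records in the count table of the comb jelly Mnemiopsis leidyi, 127 met a rule for transcripts that were present at 1 hour post fertilization (hpf), fell, and were back at 8-9 hpf. They were chosen by their levels in the 19 libraries whose codes start with 2013. Levels are given as CPM, a record's count over the total of its library, scaled to parts per 1e6. A member stood at 20 to 1000 CPM in both 1 hpf libraries, which 4697 records did. The lowest of its means at 2-3, 4-5 and 6-7 hpf was at most 0.6 times its 1 hpf mean, its 2-3 hpf mean was under 2 times that mean, and its 8-9 hpf mean lay between 0.9 and 3 times it. The same 4697 records held 1353 that fell in this way and stayed under 0.9 times the 1 hpf mean, and 3210 that never fell to 0.6 times. These are called lost and not restored, and never lost, below.

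All groups were pools of whole embryos of wild-caught animals, with no treatment or genotype named in the labels, and differed in hour and library code. At 1, 2-3, 4-5, 6-7 and 8-9 hpf there were 2, 5, 3, 5 and 4 libraries with 2013 codes, which chose the members, and 1, 2, 3, 3 and 3 with 2012 codes, which did not. The first digit or letter after the year is called the code series here, and no label says what it stands for. For 3 hpf 2013_23 the title reads 2013_N5, and the description, which names the column, was used. Series 2013_2 had 1 library at each hour from 1 to 8 hpf, 2013_4 had libraries at 1, 2, 6, 7, 8 and 9 hpf and none from 3 to 5 hpf, 2013_3 covered 2 to 4 hpf, and 2013_1 covered 7 and 8 hpf. Total counts ran from 17608264 to 116632427 per library, and the lowest count of any member in any library was 60. In 2 pairs of 2012 columns one was nowhere below the other, 1 hpf 2012_N7 over 9 hpf 2012_37 and 4 hpf 2012_N4 over 5 hpf 2012_14. The total of the smaller column was 83.7% of the larger in the first pair and 68.8% in the second.

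An animal egg is loaded by the mother with messenger RNA that runs the first cleavages before the embryo's own genome is read. Many of these maternal messages are later destroyed, some persist, and some are made again by the embryo, so that a level can fall and come back. In animal embryos messages can also lose or gain their poly(A) tail without being destroyed, and a library made from polyadenylated RNA counts a message by its tail. In whole embryos, fewer cells with a transcript and less of it per cell cannot be told apart. The records are numbered identifiers, and 0 of 31067 were found in the gene table of another annotation of the species (assembly crg_Mlei_v2), so that no gene names, functions or sequences are given.

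The members fell into 3 groups by the stage of their lowest mean, 13 at 2-3 hpf, 52 at 4-5 hpf and 62 at 6-7 hpf. At 1 hpf their mean level ran from 24.8 to 887 CPM with a median of 87.8, beside a median of 87.3 CPM in all 4697 maternal records. The lowest stage stood at a median of 0.523 times the 1 hpf mean (0.196 to 0.597) and 8-9 hpf at a median of 1.04 times it (0.904 to 2.44). From the lowest stage to 8-9 hpf the means rose by a median of 2.22 times, from 1.57 to 10.4 times. These values chose the members and carry no test. Most dips were shallow: 11 of 127 lay under 0.4 times the 1 hpf mean and 2 under 0.3. The 2 members nearest the limit both stood at 0.597 times, and the 2 nearest records outside it at 0.601 times. Within 0.05 of the limit there were 44 members inside and 65 records outside that met the rest of the rule.

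The members' median length, which the rule did not use, was below that of other maternal records, a difference that was not tested. Their median length was 1773 bases (quartiles 1091 and 2593), against 2453 (1688 and 3515) for all 4697 maternal records, 1897 for those lost and not restored and 2780 for those never lost. The 3 groups were alike in this, with medians of 1547, 1738 and 1803 bases.

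The members' summed share of counts (mean ± SD over libraries of 2013) was 1.83 ± 0.065% in the 2 libraries of 1 hpf and 1.57 ± 0.215% in the 5 of 2-3 hpf. It was lowest, 1.4 ± 0.0219%, in the 3 of 4-5 hpf, then 1.63 ± 0.462% in the 5 of 6-7 hpf and 2.11 ± 0.606% in the 4 of 8-9 hpf. The spread at the last 2 stages followed the code series. At 8-9 hpf the share was 1.28% in 2013_28, 2.03% in 2013_18, 2.52% in 2013_48 and 2.6% in 2013_49. The range at 6-7 hpf was 1.14% to 2.12%, so that these stages overlapped. With TMM-scaled CPM, which aligns the bulk of records between libraries, the means were 2.05%, 1.78%, 1.28%, 1.84% and 1.66% in the order of the stages, so that 8-9 hpf was then below 1 hpf and 6-7 hpf.

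**Figure D1:**
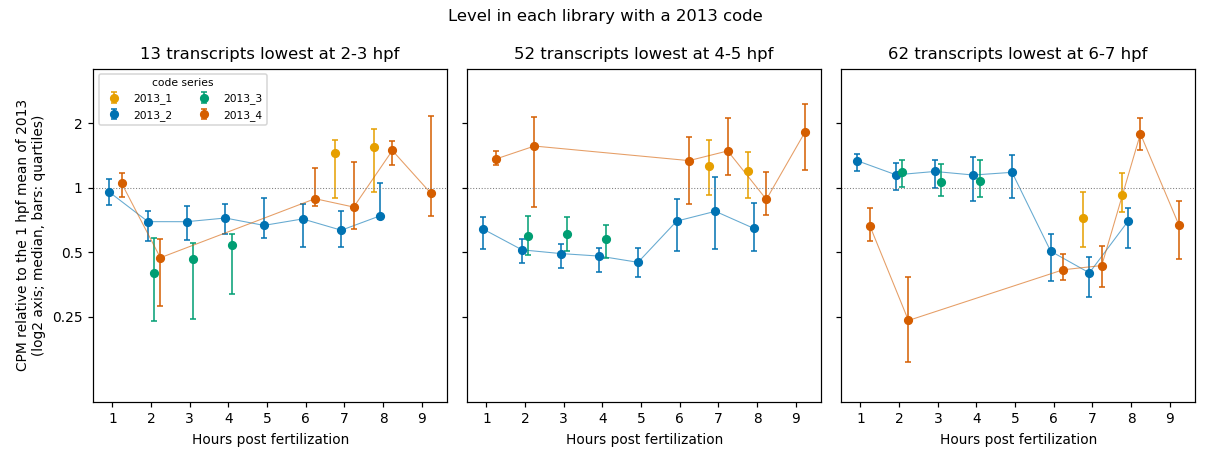
Median level of the 3 groups in each library with a 2013 code (y, CPM relative to each record's 1 hpf mean, log2 axis; bars are quartiles over members) against the hour (x), coloured by code series, with lines joining libraries of series 2013_2 and of 2013_4. In the middle panel series 2013_2 lies below 2013_4 at every hour both hold. In the right panel all 5 libraries of 6 and 7 hpf lie at or below 0.724. So do 1 hpf 2013_41 (0.665), 2 hpf 2013_42 (0.24), 8 hpf 2013_28 (0.697) and 9 hpf 2013_49 (0.667).

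The 62 transcripts lowest at 6-7 hpf were low at 6 and 7 hpf in series 2013_2 and 2013_4, and their levels differed between them at the other hours. In series 2013_2 their median level relative to the 1 hpf mean began at 1.33, lay between 1.15 and 1.19 from 2 to 5 hpf, and was 0.505, 0.4 and 0.697 in the libraries of 6, 7 and 8 hpf. In series 2013_4 it began at 0.665 and was 0.413, 0.433, 1.79 and 0.667 in those of 6, 7, 8 and 9 hpf. Within each of them 62 of 62 members had a higher mean at 8-9 than at 6-7 hpf, a count that the rule, which used these libraries, largely fixes. Against the 1 hpf library of the same series, the median at 6-7 hpf was 0.36 times in 2013_2 and 0.636 times in 2013_4. At or under 0.6 times were 62 of 62 in 2013_2 and 23 of 62 in 2013_4. The median at 8-9 hpf was 0.537 times in 2013_2, where 2 of 62 reached 0.9 times, and 1.72 times in 2013_4, where 62 of 62 did. Both the loss and the return held for 2 of 62 in 2013_2 and 23 of 62 in 2013_4. In 2013_4 the level was already down to 0.24 at 2 hpf, in 2013_42, with 59 of 62 members at or under 0.6, whereas 0 of 62 were in 2 hpf 2013_22 and 2013_32.

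Mle_027976 (866 bases) had the largest ratio of 8-9 hpf to its low stage among members of this group that were under 0.6 times the 1 hpf mean in all 5 libraries of 6-7 hpf. It stood at 49.1 CPM in 1 hpf 2013_21 and 20.4 CPM in 2013_41. The 5 libraries of 6 and 7 hpf held 12.7, 12.9, 16.0, 12.7 and 16.0 CPM, and the 4 of 8 and 9 hpf held 26.8, 66.4, 175 and 43.7 CPM. Every 6-7 hpf library was thus below both 1 hpf libraries and below every 8-9 hpf library of 2013. From 2 to 5 hpf the code series went apart, with 39.6 CPM at first and 23.7 CPM at last in 2013_2, 60.3 and 121 CPM in the first and last library of 2013_3, and 3.29 CPM in 2 hpf 2013_42.

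Mle_018433 (1367 bases) was next. It stood at 83.3 and 23.6 CPM at 1 hpf. The 5 libraries of 6 and 7 hpf held 29.9, 22.8, 27.95, 23.4 and 31.7 CPM, and the 4 of 8 and 9 hpf held 43.4, 66.3, 200 and 64.8 CPM. Here the low stage lay below every later library, but not below 1 hpf 2013_41, which was as low.

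The 52 transcripts lowest at 4-5 hpf stood at different levels in the code series. In series 2013_2 their median relative level was 0.64, 0.512, 0.492, 0.479, 0.448, 0.698, 0.776 and 0.645 from 1 to 8 hpf in order. In series 2013_4 it was 1.36, 1.56, 1.34, 1.48, 0.881 and 1.82 in the libraries of 1, 2, 6, 7, 8 and 9 hpf. Series 2013_4 was above 2013_2 at all 5 hours that both hold. The 4-5 hpf mean held no library of 2013_4, while the 1 hpf and 8-9 hpf means did, so that for this group hour and code series cannot be told apart across series. Within 2013_2 the 4-5 hpf level was a median of 0.766 times the 1 hpf library. There 13 of 52 were at or under 0.6 times, 32 of 52 were back at 0.9 times or more at 8 hpf, and 2 of 52 did both.

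Mle_015355 (1213 bases) had the largest return of all members. It stood at 44.9 CPM in 1 hpf 2013_21 and 129 CPM in 2013_41, at 20.9, 19.9 and 18.6 CPM in the 3 libraries of 4-5 hpf, and at 415, 52.4, 198 and 157 CPM in 8 hpf 2013_18, 2013_28, 2013_48 and 9 hpf 2013_49. All 3 low values lay below both 1 hpf libraries and all later ones. Series 2013_2 was already at 20.3 CPM at 2 hpf, and the highest values were those of series 2013_1, 407 CPM at 7 hpf and 415 CPM at 8 hpf. In the libraries of 2012 it held 65.6 and 49.9 CPM at 5 hpf and 46.6, 37.3 and 63.2 CPM at 8-9 hpf, and these stages overlapped.

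Mle_002424 (2097 bases) had the deepest dip, to 0.196 times the 1 hpf mean, and showed how series entered it. It held 161 CPM in 1 hpf 2013_21 and 411 CPM in 2013_41, then 71.0 and 76.3 CPM at 4 and 5 hpf in series 2013_2 and 20.6 CPM in 4 hpf 2013_34. At 8 and 9 hpf it held 147, 86.4, 429 and 818 CPM. Series 2013_2 stayed between 71.0 and 86.4 CPM at every hour from 2 to 8 hpf, and 2013_3 stayed between 18.5 and 20.6 CPM from 2 to 4 hpf.

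**Figure D2:**
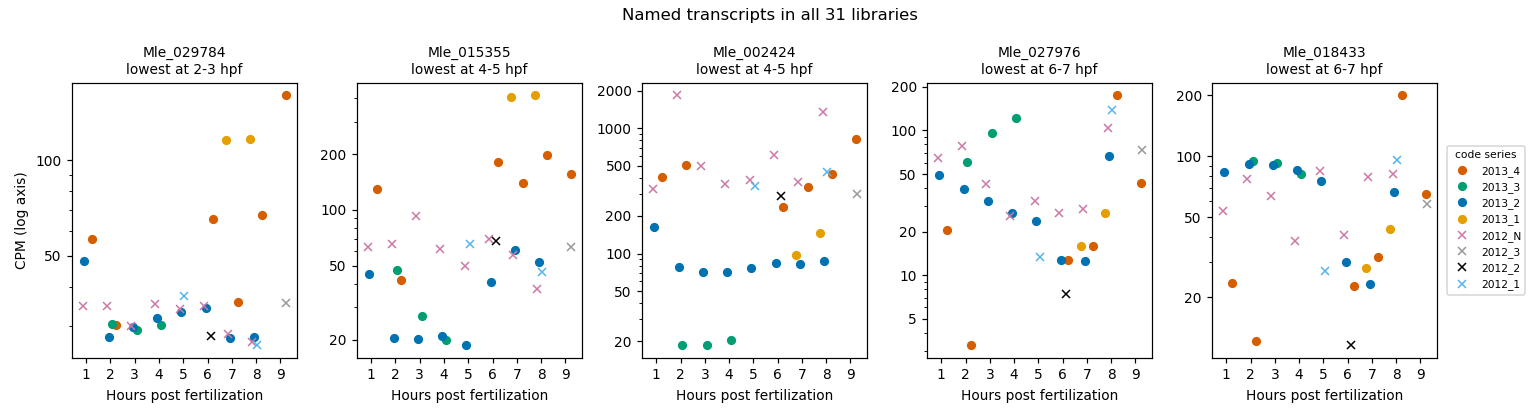
CPM (y, log axis) of the 5 named transcripts in every library against the hour (x), coloured by code series, with circles for 2013 and crosses for 2012. Mle_027976 is low at 6 hpf and higher at 8 hpf in both years, while in Mle_002424 the series lie at levels of their own.

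The 13 transcripts lowest at 2-3 hpf stood at a median relative level of 0.694, 0.398 and 0.471 in 2 hpf 2013_22, 2013_32 and 2013_42 and of 0.693 and 0.462 in 3 hpf 2013_23 and 2013_33. At 8-9 hpf they stood at 1.55, 0.738, 1.49 and 0.94 in 2013_18, 2013_28, 2013_48 and 2013_49. The late level was thus highest in 8 hpf of 2013_1 and 2013_4, and 2013_2 stayed between 0.633 and 0.738 from 2 to 8 hpf. Mle_029784 (3811 bases), the 1 member of this group under 0.6 times the 1 hpf mean in all 5 libraries, stood at 48.3 and 56.7 CPM at 1 hpf, at 27.7, 30.5, 30.4, 29.8 and 29.2 CPM at 2-3 hpf and at 117, 27.8, 67.1 and 160 CPM at 8-9 hpf. In 8 hpf 2013_28 it was still as low as at 2 hpf.

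The single transcripts varied within stages as the groups did. In 33 of 127 members every library of the low stage was at or under 0.6 times the 1 hpf mean. In 59 every low library lay below both 1 hpf libraries, in 39 every low library lay below every 8-9 hpf library, and in 25 both held. Of these 25, 18 were lowest at 4-5 hpf, 4 at 6-7 hpf, and 3 were of the earliest group. The rule used these libraries, so these counts describe the choice and are no support. They were not made over other records, so whether they are many or few cannot be read. The 2 libraries of 1 hpf differed by 2 times or more in 63 of 127 members (49.6%). These were 31 of the 52 lowest at 4-5 hpf, 31 of the 62 lowest at 6-7 hpf and 1 of the 13 lowest at 2-3 hpf. The share was 16.1% of all 4697 maternal records, 25.9% of those lost and not restored and 10.5% of those never lost.

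Membership turned on a few libraries. Without 1 hpf 2013_21 the rule still held for 40 of the 127, without 1 hpf 2013_41 for 27, and without 8 hpf 2013_48 for 71, of which 13 were of the 62 lowest at 6-7 hpf. Without any other single library it held for between 104 and 127. Without code series 2013_4, as in the next 2 alternatives chosen after seeing the data, it held for 16, and without series 2013_2 for 44, and in series 2013_2 alone for 6. With CPM scaled by TMM factors (with extremes of 0.641 for 2013_42 and 1.69 for 2013_48) 25 still met it, and with RLE factors 74. Between 16 and 44 of the 127 still met the rule without either 1 hpf library, without series 2013_4 or 2013_2, or with TMM factors. These counts re-apply the rule to libraries that chose the members, and are no test of the loss and return. In all, 141 records met the rule without 1 hpf 2013_21 and 149 without 1 hpf 2013_41. Whether a loss and return was shared by all series cannot be read here. Series 2013_1 and 2013_3 had no 1 hpf library, and 2013_4 had none from 3 to 5 hpf.

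**Figure D3:**
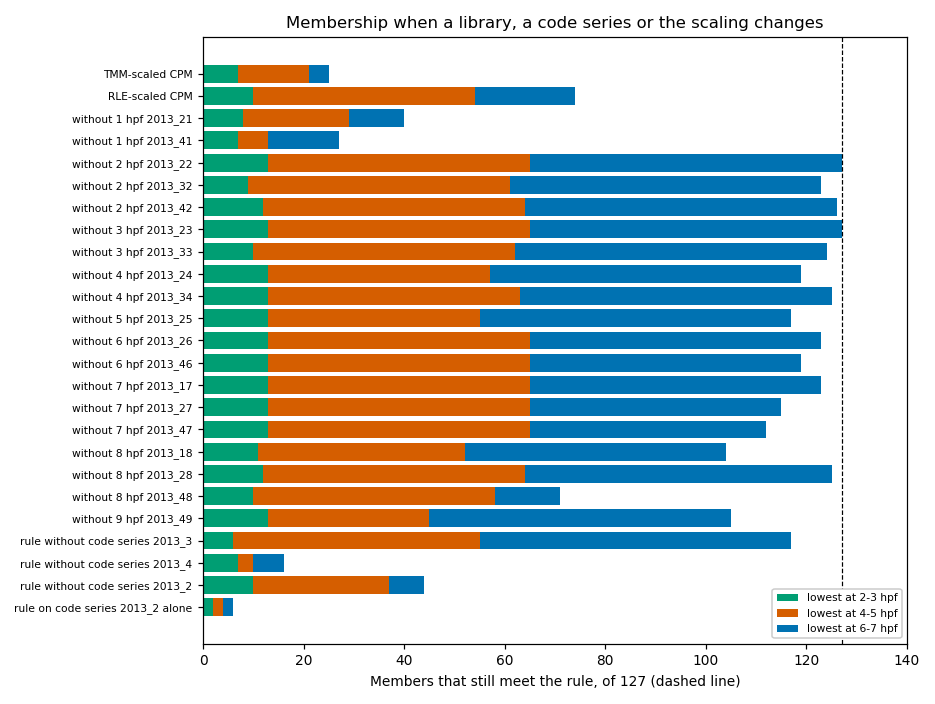
Number of the 127 members that still met the rule (x) after a change of scaling, without each library of 2013, or without a code series (y), coloured by the stage of the lowest mean. The bars without 1 hpf 2013_41 (27), without series 2013_4 (16) and for series 2013_2 alone (6) are among the shortest.

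Because series 2013_2 and 2013_4 share 5 hours, their difference was fitted over all records with the hour as a term (edgeR's quasi-likelihood test, 10 libraries). Of 17583 records, 1.55% were higher in 2013_4 and 2.99% lower at an adjusted p under 0.05. Of the 52 members lowest at 4-5 hpf, 7 were higher (13.5%) and 0 lower, and the median was 1.06 on the log2 scale. A positive difference was seen in 51 of these 52 (98.1%), beside 37.1% of maternal and 45.9% of all records. Of the 62 lowest at 6-7 hpf 0 passed in either direction, and the median was -0.34. At an unadjusted p under 0.05, 2 of these 62 were higher and 8 lower, beside 1561 and 2517 of the 17583 records. Of the 13 lowest at 2-3 hpf 1 was higher (7.69%). The median of all 4697 maternal records was -0.18. All 10 libraries of this fit also chose the members, so the shares in all 3 groups are not independent of the rule and are no support. For the 52 the choice leans towards records high in 2013_4, which is absent from the 4-5 hpf mean. Their positive differences are therefore in part fixed by the rule. The 8 calls went to 0 without the pair of 1, 6 or 7 hpf libraries, where 0.179%, 0.162% and 0.0831% of all records were higher, and to 26 without that of 8 hpf, where 2.73% were. With RLE factors 1.77% of records were higher and 1.49% lower, and with library totals 0.825% and 0.847%, with 8 members higher and 0 lower in both.

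Among the members that passed, Mle_012397 (1628 bases) had the largest difference, with 72.7 CPM in 2013_41 against 20.1 CPM in 2013_21 at 1 hpf, 21.1 against 15.4 CPM at 2 hpf, 21.5 against 3.42 CPM at 6 hpf, 14.4 against 1.87 CPM at 7 hpf and 102 against 5.67 CPM at 8 hpf. It was higher in 2013_4 at all 5 hours, by 2.48 on the log2 scale (SE 0.37, edgeR adjusted p = 0.0117). Among those members Mle_022909 (2335 bases) came next with 2.07 (SE 0.36, edgeR adjusted p = 0.0187). It went from 73.8 against 22.1 CPM at 1 hpf to 57.1 against 18.5 CPM at 8 hpf, and was also higher at all 5 hours. Both were lowest at 4-5 hpf, where the rule leans towards records high in 2013_4, so these p-values are not independent of it.

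Whether the members return was tested in the libraries of 2012, which the rule did not use. The fit took 10 of them, without the 2 larger overlapping columns, and each member was read in the contrast of 8-9 hpf (n = 3) with its own low stage. Of 24246 records 0% passed in either direction in each of the 3 contrasts, and so did 0 of the 127 members with edgeR. At an unadjusted p under 0.05, 5 of the 52 members lowest at 4-5 hpf were lower and 0 higher. Of the 24246 records 2056 were lower and 4732 higher in that contrast. Of the 62 lowest at 6-7 hpf 0 were lower and 2 higher, beside 580 and 564 of all records. Of the 13 lowest at 2-3 hpf 0 were lower and 0 higher, beside 678 and 183. DESeq2 called 1 of the 62 members lowest at 6-7 hpf higher, where 0.121% of records were, and 1 of the 52 lowest at 4-5 hpf lower, where 2.74% were. It called 0 of these 52 higher, beside 18.9% of records. The limma test on RPKM, whose filter kept 111 of the 127 members, called 1 of 51 lowest at 6-7 hpf higher, beside 0.21% of records. The log2 change was above 0 in 35 of 127 members, with a median of -0.27 and a range of -2.49 to 1.95. This sign depended on the scaling: with library totals in place of TMM factors the median was 0.14, and the median of all records moved from 0.17, 1.49 and 0.04 to 0.35, 2.04 and 0.33 in the 3 contrasts. Without 7 hpf 2012_N1 the members' median was 0.11, and without 2 hpf 2012_N6, 6 hpf 2012_N2 and 7 hpf 2012_N1 together it was 0.32. In that fit 1 of the 52 members lowest at 4-5 hpf was higher and 10 lower, beside 43.6% and 14.8% of records. Of the 62 lowest at 6-7 hpf 4 were higher, beside 6.86% of records, and of the 13 lowest at 2-3 hpf 1 was lower, beside 11.7%.

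**Figure D4:**
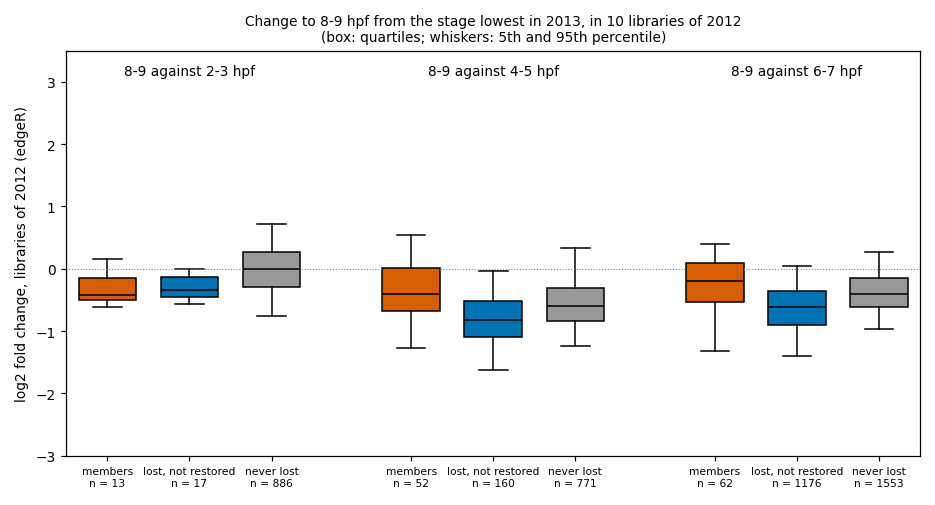
Log2 change to 8-9 hpf (y, edgeR, 10 libraries of 2012) from the stage at which a record was lowest in 2013 (3 blocks), for members, records lost and not restored, and records never lost, with n of each; boxes are quartiles and whiskers the 5th and 95th percentiles. All 3 boxes of members have medians below 0, at -0.42, -0.40 and -0.20.

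Beside other maternal records with the same low stage, the members' medians were less negative in 2 of the 3 contrasts. Against 6-7 hpf the median change was -0.20 for the 62 members, -0.62 for 1176 records lost and not restored and -0.40 for 1553 never lost. Against 4-5 hpf it was -0.40 for the 52 members, -0.83 for 160 records lost and not restored and -0.60 for 771 never lost. Against 2-3 hpf the 13 members were at -0.42, below the -0.01 of 886 records never lost. No test of these differences was made.

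In CPM (library totals), every 8-9 hpf library of 2012 lay above every library of the low stage in 9 of the 62 members lowest at 6-7 hpf, 7 of the 52 lowest at 4-5 hpf and 1 of the 13 lowest at 2-3 hpf. Over all 24246 records this held for 21.2%, 60.2% and 17%, so that none of the 3 shares of members was above the background. Of maternal records with the same low stage it held for 6.88%, 10.8% and 41.9%.

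**Figure D5:**
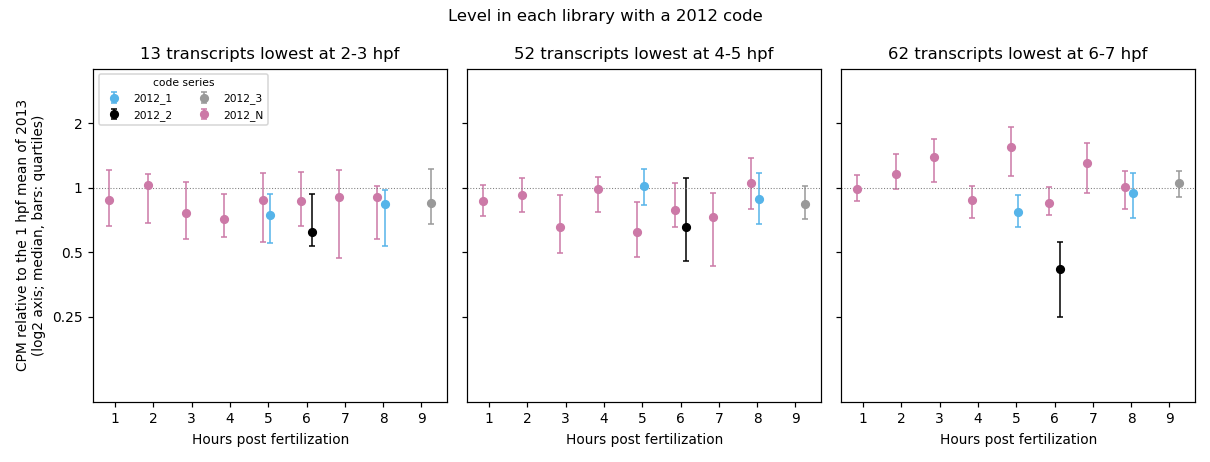
Median level of the 3 groups in each library with a 2012 code (y, CPM relative to the 1 hpf mean of 2013, log2 axis; bars are quartiles over members) against the hour (x), coloured by code series. 6 hpf 2012_23 (black) is the lowest in the right panel at 0.416, while the other libraries of 6 and 7 hpf are at 0.845 and 1.31.

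In 2012 the low of the 6-7 hpf group was seen in 1 library of 3. Its 62 transcripts stood at a median relative level of 0.416 in 6 hpf 2012_23, but at 0.845 in 6 hpf 2012_N2 and 1.31 in 7 hpf 2012_N1, beside 1.16 and 1.39 in 2 and 3 hpf, 0.77 and 1.54 in 5 hpf 2012_14 and 2012_N3, and 0.948, 1.01 and 1.05 at 8-9 hpf. In 2012_23, read alone after seeing the data, 57 of 62 (91.9%) lay below all 4 libraries of 2 to 5 hpf in the fit and 55 (88.7%) also below all 3 of 8-9 hpf. Of all records 27.9% and 23.7% did so, of maternal records with the same low stage 63.1% and 44.2%, and of those lost and not restored 86.9% and 62.5%. The members' mean at 8-9 hpf was a median of 2.29 times their level in 2012_23 (quartiles 1.78 and 3.37), against 1.17 times for the 2792 maternal records with this low stage and 1.44 times (0.864 and 2.98) for all records tested with a count in that library. The 52 members lowest at 4-5 hpf showed no common low in 2012, at 1.015 and 0.621 in 5 hpf 2012_14 and 2012_N3 and at 0.883, 1.05 and 0.841 at 8-9 hpf.

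Mle_027976 had the second smallest p of the members in this test. It stood at 7.44, 27.01 and 28.5 CPM in 6 hpf 2012_23, 6 hpf 2012_N2 and 7 hpf 2012_N1, and at 139, 104 and 72.9 CPM at 8-9 hpf, so that the stages did not overlap. The log2 change was 1.95 (SE 0.58), which did not pass (edgeR adjusted p = 0.796). Mle_025615 (2118 bases), with the smallest p, went the opposite way, from 113 and 83.5 CPM at 5 hpf to 58.2, 56.4 and 65.3 CPM at 8-9 hpf, a log2 change of -1.27 (SE 0.37) that did not pass either (edgeR adjusted p = 0.178).

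The loss was tested in the 12 libraries of 2012 after the smaller overlapping columns were subtracted from the larger, which leaves 1 library at 1 hpf, assumed to vary like the others. With edgeR 0 of 127 members passed in either direction between their low stage and 1 hpf, and of 25748 records 0% were called lower in each contrast, with 0%, 0.0117% and 0.0117% higher at 2-3, 4-5 and 6-7 hpf. Over all 25748 records the median log2 change from 1 hpf was 1.89, 1.004 and 1.93 at 2-3, 4-5 and 6-7 hpf. The median change was -0.62 for the 52 members lowest at 4-5 hpf, 48 of them below 0 and 4 above. The 987 maternal records with this low stage had a median of -0.47, with 118 above 0. For the 13 members lowest at 2-3 hpf the median was -0.56, with 4 above 0. It was -0.40 for the 918 maternal records with that low stage, 185 of them above 0. For the 62 members lowest at 6-7 hpf the median was 0.01, with 32 above 0. The 2792 maternal records with this low stage had a median of -0.17, with 890 above 0.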

How the data were processed

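Per the labels' protocols, RNA of 100 to 200 whole embryos per stage was polyA-selected and libraries were amplified with 15 PCR rounds and cut to 350 to 600 base pairs. The deposited table holds whole-number read counts of transcript records. Bowtie2 and SAMtools are named without versions in the submitters' processing notes. Which reference was used, and how reads were counted, is not given here, so counts of near-identical records are uncertain. The authors' RPKM values use 1 common total for all libraries and were used in an alternative only. The series calls its samples biological replicates. In the fits of 2012 a stage could join different hours and code series, so p-values measure the spread of all these together. In the fit between code series, with 1 library per series and hour, they measure the spread of the series difference over hours.

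Tests used R 4.3.3, edgeR 4.0.16 (filterByExpr, TMM, quasi-likelihood, Benjamini-Hochberg over all records, threshold 0.05), with DESeq2 1.42.0 and limma 3.58.1 (log2(RPKM + 1), records above 1 RPKM in at least 2 libraries) as alternatives. The edgeR tests were run on simulated data with a lower biological coefficient of variation than the fits of the return (0.861) and loss (0.909). Whether they recover changes at the spread of those fits was not tested. SE is the absolute log2 fold change over the square root of F. Printed levels are CPM of library totals. Members, groups and tests were chosen with earlier results of these data known. Named records follow a fixed rule: per low stage, up to 2 members with the largest return among those at or under 0.6 times in every library of that stage; per test, the 2 largest changes in each direction at 10 CPM or more, or the 2 smallest p-values where none passed. No interval for counting error is given, since every comparison is over libraries.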

Additional observations from a re-analysis of the deposited data

Results flagged for a closer look

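Of 36 groups of 4 or 5 libraries examined, 8 held a library far from the others of its stage. The groups share the same libraries of 2013, which also chose the members, so that no chance rate is given for this count. Of these, 5 are 2 hpf 2013_42 among the 2-3 hpf libraries of 2013 and concern different measures: the median relative level of the members lowest at 4-5 hpf was 1.56 there, that of the members lowest at 6-7 hpf 0.24, Mle_002424 stood at 505 CPM, Mle_018433 at 12.1 CPM and Mle_022909 at 104 CPM. A further 1, the share of counts taken by all members, was 1.95% in the same library. Mle_022909 stood at 92.6 CPM in 7 hpf 2013_47, above the other 6-7 hpf libraries, and Mle_018433 at 200 CPM in 8 hpf 2013_48, above the other 8-9 hpf libraries.

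The course of the members lowest at 6-7 hpf from 1 hpf to 8-9 hpf went opposite ways in code series. Their median relative level changed by -0.638 in 2013_2 and by 0.561 in 2013_4 (mean of 8 and 9 hpf). The value in 2013_4 rests on 8 hpf 2013_48, where the change was 1.12, whereas in 9 hpf 2013_49 it was 0.0015. The difference was not tested.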

How the results depend on the processing

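The number of records meeting the rule, 127, was 67 with TMM-scaled CPM, 49 and 288 with a lowest mean of at most 0.5 and 0.7 times 1 hpf, 219 and 76 with a return of at least 0.8 and 1.0 times, 69 without code series 2013_4, 195 without 2013_2 and 44 in 2013_2 alone (these 3 chosen after seeing the data), and ran from 78 (without 8 hpf 2013_48) to 219 (without 7 hpf 2013_17) when each library was left out. For the return in 2012 the median log2 change, -0.27, was 0.14 with library totals, 0.22 with limma on RPKM, 0.018 with the code series as a replicate block, 0.32 without 2 hpf 2012_N6, 6 hpf 2012_N2 and 7 hpf 2012_N1, -0.43 with no filter, -0.53 with the overlapping columns as deposited, -0.20 with them subtracted, and -0.22, -0.22 and -0.21 for members chosen with TMM-scaled CPM, at 0.5 times, or back at 1.0 times. Leaving out each library gave -0.55 to 0.11. Members higher numbered 1 with DESeq2, 1 with limma and 5 without those 3 libraries, and members lower 1 with DESeq2 and 11 without them, in place of 0 and 0. Over all records, the shares called higher against 2-3, 4-5 and 6-7 hpf were 0.164%, 18.9% and 0.121% with DESeq2, 0.0631%, 1.22% and 0.21% with limma and 36.2%, 43.6% and 6.86% without those libraries. The shares called lower were 0.0188%, 2.74% and 0.155% with DESeq2 and 11.7%, 14.8% and 1.26% without them. Leaving out each library gave 0 to 0, and the replicate block, with 0 and 0, changed no call there or in the loss. The codes do not pair the samples by label. Between code series, 8 higher and 0 lower became 43 higher with DESeq2 (9.5% of records), 28 higher and 6 lower with no filter (2.55% and 5.4% of records), and 0 to 26 higher and 0 to 2 lower without each hour's pair (0.0831% to 3.1% and 0.0772% to 4.45% of records). Without the hour as a replicate block the higher count was 9 (1.05% of records). For each of these changes the cause was not tested. The loss stayed at 0 calls in each alternative run. It could not be fitted without 1 hpf 2012_N7. The biological coefficient of variation between the 2012 libraries was 0.861 in the fit of the return.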

Other observations

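The difference between code series 2013_4 and 2013_2 was set beside the length of a record. Across the 4697 maternal records, which share the same libraries, Spearman's rho between log2 length and the log2 difference was -0.03, given as a description. The median difference was -0.18, -0.14, -0.18 and -0.21 over 4 classes of length, shortest to longest, and 17, 9, 7 and 1 of their records were higher and 53, 49, 59 and 45 lower in 2013_4 (edgeR, adjusted p under 0.05). Mle_002424 stood at 1830 CPM in 2 hpf 2012_N6 and at 1359 CPM in 8 hpf 2012_N8B, above its level in each library of 2013.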
